A study of Drosophila melanogaster with 2 samples.

Results

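Abd-B-GFP peaks inside the introns of long genes were described in whole embryos of Drosophila melanogaster collected at 4 to 20 h. The embryos came from a transgenic line of the Abd-B-GFP strain, which stably expresses Abd-B with GFP fused at its C-terminus. Chromatin bound by the fusion protein was precipitated with an antibody against GFP and sequenced (ChIP-seq), in 1 group of 2 biological replicates with no second genotype or treatment. Whole embryos mix all cell types, so a peak does not show in which cells the site was bound, and the tagged protein was not compared with an untagged line here. The peaks were the 5033 of the authors' list that passed their irreproducible discovery rate (IDR) threshold, which keeps peaks ranked alike by the replicates. A peak was a member when its summit lay more than 500 bp from every annotated transcription start site (TSS), in no annotated exon, and inside a protein-coding gene, where the longest gene over the summit spanned at least 50 kb. By this rule 552 of the 5033 peaks (10.97%) were members, against 1145 intronic peaks in genes under 50 kb and 2444 promoter peaks within 500 bp of a TSS. The rule used only positions and the annotation, not peak strength.

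Abd-B is the Hox protein that patterns the posterior abdomen, and like other Hox proteins it binds short AT-rich sites, in part together with the cofactors Extradenticle and Homothorax. Many fly developmental genes have long introns, and enhancers that control a gene in particular tissues often lie in its own introns. Long introns can also hold whole other genes and the enhancers of neighbouring genes, so the gene that surrounds a summit need not be the gene that a bound site controls.

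Sequences of 8 members, each the summit base with 100 bases on either side, show the DNA under 6 of the 7 strongest members and under the strongest member of the 3 genes that held most members. They are from the RefSeq sequence of the Release 6 assembly (dm6), plus strand, with the summit in the middle. The positions were chr2L:480988-481188 for ush, chrX:3742120-3742320 for Tlk, chr3L:21880387-21880587 for mub, chr3L:16480457-16480657 for CG33158, chrX:7307108-7307308 for CG1677, chr2L:5145651-5145851 for Msp300, chrX:3097103-3097303 for kirre and chr3R:10564325-10564525 for hth. Capitals mark, on either strand, the Abd-B forms TTTATGG and TTTATTG, the Hox core TAATTA, the Caudal motif TTTATG (which lies inside TTTATGG), the DREF motif TATCGATA and the M1BP motif GGTCACAC.
ush: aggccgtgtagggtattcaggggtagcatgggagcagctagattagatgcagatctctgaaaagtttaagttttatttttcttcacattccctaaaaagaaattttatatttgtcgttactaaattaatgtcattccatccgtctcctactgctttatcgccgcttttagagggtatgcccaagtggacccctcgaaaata
Tlk: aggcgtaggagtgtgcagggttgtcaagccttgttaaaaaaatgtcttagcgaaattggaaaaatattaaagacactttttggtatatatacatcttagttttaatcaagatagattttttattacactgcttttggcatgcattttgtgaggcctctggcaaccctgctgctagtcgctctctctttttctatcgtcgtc
mub: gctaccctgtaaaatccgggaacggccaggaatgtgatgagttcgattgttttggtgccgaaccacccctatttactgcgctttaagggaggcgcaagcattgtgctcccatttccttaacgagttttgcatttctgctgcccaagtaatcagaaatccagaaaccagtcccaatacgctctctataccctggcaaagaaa
CG33158: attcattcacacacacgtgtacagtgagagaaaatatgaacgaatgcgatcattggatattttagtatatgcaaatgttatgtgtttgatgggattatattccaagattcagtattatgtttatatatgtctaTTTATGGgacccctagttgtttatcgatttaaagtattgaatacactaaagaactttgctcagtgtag
CG1677: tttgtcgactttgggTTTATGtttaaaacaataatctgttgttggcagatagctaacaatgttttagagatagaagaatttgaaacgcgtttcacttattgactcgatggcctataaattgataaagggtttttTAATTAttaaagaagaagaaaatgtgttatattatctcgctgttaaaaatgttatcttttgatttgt
Msp300: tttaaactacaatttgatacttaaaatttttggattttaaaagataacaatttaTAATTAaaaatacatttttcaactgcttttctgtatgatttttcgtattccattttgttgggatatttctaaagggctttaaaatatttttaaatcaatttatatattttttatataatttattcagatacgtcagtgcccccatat
kirre: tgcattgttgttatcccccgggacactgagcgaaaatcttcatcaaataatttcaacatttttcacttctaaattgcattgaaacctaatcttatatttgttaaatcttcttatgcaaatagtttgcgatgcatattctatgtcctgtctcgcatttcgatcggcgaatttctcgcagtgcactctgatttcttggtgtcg
hth: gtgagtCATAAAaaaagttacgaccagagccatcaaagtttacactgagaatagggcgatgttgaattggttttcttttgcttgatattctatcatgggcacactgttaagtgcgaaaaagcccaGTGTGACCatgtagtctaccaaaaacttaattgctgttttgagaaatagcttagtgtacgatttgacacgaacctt
Only the CG33158 window of the 8 holds an Abd-B form, and the strongest member of all, in ush, holds none of the capitalised motifs. The Hox core lies in the CG1677 and Msp300 windows, Caudal matches outside an Abd-B form in those of CG1677 and hth, and an M1BP match in that of hth. GC content ran from 20.9% in the Msp300 window to 47.8% in the mub window.

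Whether members recur in both replicates depended on how deep the replicate lists were read. Of the 552 members 516 (93.5%, 95% Wilson interval 91.1 to 95.3%) had a summit within 100 bp in the full list of each replicate, 8 in replicate 1 only and 28 in replicate 2 only, and the share over all 5033 peaks was 92.1%. Intronic peaks in shorter genes stood at 92.1% (Fisher's exact test, p = 0.325) and promoter peaks at 91.7% (exact p = 0.165). Each full list holds 30000 peaks, and IDR had already selected for recurrence, so this share is near its ceiling. Among the 5033 strongest peaks of each replicate 359 members (65.0%) had a summit in both, and the difference from promoters turned to -10.7 percentage points (exact p = 4.47e-07). That cut is by strength, and the median IDR rank was 2984 for members and 2113.5 for promoter peaks. The part of strength in the difference was not tested. Members ranked lower than both other classes of peak. Among the strongest 25% of the IDR list lay 16.3% of members (13.5 to 19.6%), against 21.3% of intronic peaks in shorter genes (19.0 to 23.8%, exact p = 0.0159) and 31.8% of promoter peaks (30.0 to 33.7%, exact p = 4.78e-14). The difference from shorter genes was not detected farther from TSSs: it was -0.69 percentage points beyond 2000 bp (exact p = 0.797). The rule applied to the 5033 strongest peaks of one replicate at a time found 537 members in 170 genes for replicate 1 and 551 in 169 genes for replicate 2, with 152 genes in both. Peaks and genes do not replicate the experiment, so the p-values describe this list alone, and intervals cover counting only, with read depth unknown.

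Long genes held fewer intronic summits than their intron length. Bases that the rule can reach (eligible bases) made up 24.8 Mb in genes of 50 kb or more and 26.8 Mb in shorter genes. Members thus lay at 2.23 per 100 kb, against 4.27 per 100 kb in shorter genes. In replicate 1 alone the densities were 2.17 and 4.04 per 100 kb, and in replicate 2 alone 2.22 and 4.34. Long genes held 32.5% (30.3 to 34.8%) of the 1697 intronic summits, against 48.0% of the eligible bases, a ratio of 0.678 (exact binomial p = 4.03e-38). Density declined with the span of the gene, from 3.13 per 100 kb in genes of 50 to 75 kb to 2.91 at 75 to 100 kb, 2.10 at 100 to 150 kb and 0.884 at 150 kb or more. One gene weighs most on the last class: Myo81F, a myosin heavy chain gene of 1.97 Mb near the centromere of 3R. It made up 7.89% of the eligible bases with 1 member. Without it that class had 1.23 per 100 kb and all long genes 2.41. Pzl, lovit, CG17684 and DIP-lambda, which also passed as sparser (below), are in the same class with 0 members. Without all genes called sparser, long genes had 2.63 per 100 kb, a density raised by leaving out genes picked for low counts.

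Density also differed with distance from a TSS. Long genes have more bases far from any TSS, and in both classes the density fell with that distance. Between 500 and 1000 bp from the nearest TSS of any gene, long genes had 5.84 summits per 100 kb and shorter genes 7.62. Between 2 and 5 kb the densities were 3.47 and 3.79, between 10 and 20 kb 2.04 and 2.44, and beyond 20 kb 0.754 (0.953 without Myo81F) and 1.57, the last from only 9 summits in shorter genes. Each of the 6 distance classes was lower in long genes, but only the class of 5 to 10 kb (2.42 against 3.38 per 100 kb) passed an exact binomial test adjusted over the 6 (adjusted p = 0.0244). The median member lay 5224 bp from a TSS (quartiles 2341 and 12184 bp), against 2228 bp for intronic summits in shorter genes. The nearest summits to the rule's limits were an osp summit 502 bp from a TSS inside and a heph summit 493 bp from one outside. For span they were ab, at 50403 bp with 2 members, inside and NetA, at 49917 bp with 4 summits, outside.

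**Figure D1:**
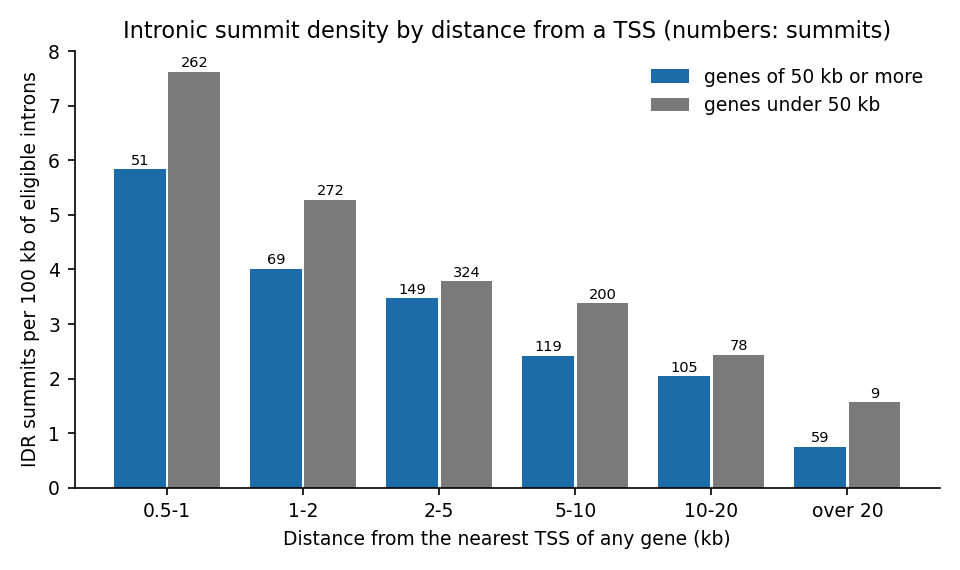
Intronic IDR summits per 100 kb of eligible introns (y axis) in classes of distance from the nearest TSS of any gene (x axis, kb), for genes of 50 kb or more (left bars) and under 50 kb (right bars), with the number of summits above each bar. Density falls with distance in both classes of gene, from 5.84 to 0.754 per 100 kb in long genes and from 7.62 to 1.57 per 100 kb in shorter ones.

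The members were spread over 171 of the 300 long genes with eligible bases (57%), and 129 long genes held none. Of the 171, 59 held 1 member, 34 held 2 and 28 held 3, with a median of 2. The 37 genes with 5 or more held 289 members (52.4%), and the 16 genes with 8 or more held 166 (30.1%). Neighbouring members of a gene lay a median of 6734 bp apart (quartiles 1937 and 17116 bp), and 43 of the 381 spacings were under 1 kb, down to 200 bp in Tlk, where neighbouring peaks can be parts of 1 bound region. Counts per gene in the 2 replicate lists are plotted against each other for all 300 genes.

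**Figure D2:**
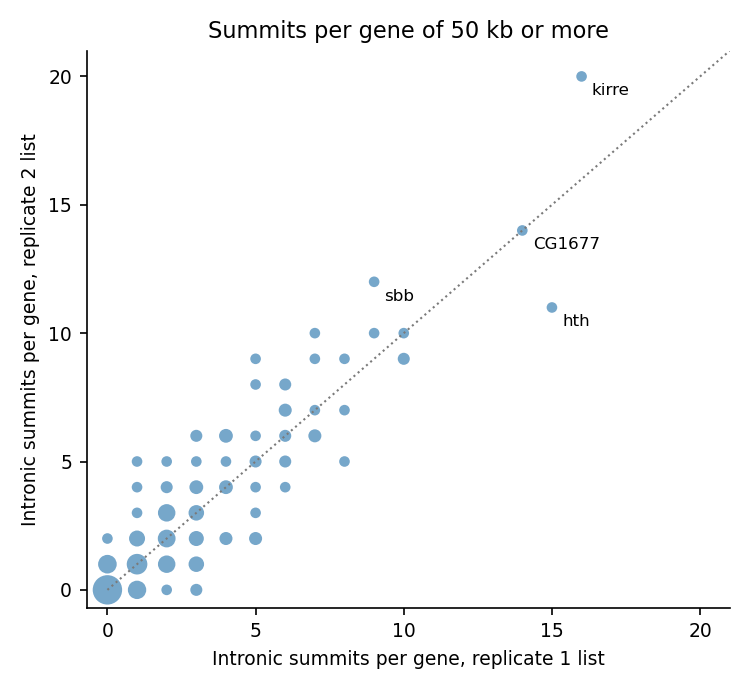
Intronic summits per gene by the same rule in the 5033 strongest peaks of replicate 1 (x axis) and of replicate 2 (y axis) for the 300 genes, where larger points stand for more genes and the dotted line marks equal counts. The largest counts were those of kirre, with 16 and 20, CG1677, with 14 and 14, and hth, with 15 and 11.

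Denser than their share of eligible bases were 19 of the 300 genes (6.33%), and sparser were 5 (1.67%), by exact binomial tests adjusted over the 300. The 19 held 183 members (33.2%) in 6.03% of the eligible bases. Among the 2500 and 1000 strongest peaks 12 and 4 genes passed as denser and 1 and 0 as sparser. The densest gene, ftz-f1, was among those lost, with a ratio of 8.48 in the 2500 strongest (exact adjusted p = 0.112) and 0 members in the 1000 strongest. The 5 densest were ftz-f1, a nuclear receptor, with 9 members at 22.2 per 100 kb (exact adjusted p = 1.78e-05), ush, a zinc finger cofactor of GATA factors, with 10 at 20.0 (adjusted p = 1.38e-05), sbb, a nuclear corepressor, with 11 at 19.6 (adjusted p = 8.55e-06), Tlk, the Tousled-like kinase, with 10 at 18.8 (adjusted p = 1.78e-05), and shn, a zinc finger protein of the Dpp pathway, with 8 at 18.6 (adjusted p = 0.000216). Their counts in replicates 1 and 2 were 8 and 9 for ftz-f1, 10 and 9 for ush, 9 and 12 for sbb, 9 and 10 for Tlk, and 10 and 10 for shn. The genes were picked from the IDR list, which keeps peaks ranked alike by the replicates, so close counts were favoured in advance. Among the other 14 were Hr4, CG1677, Smr, which encodes a corepressor, MSAmiP, rdx, an adaptor of a ubiquitin ligase that degrades Ci, hth, Drak, CG32264, fz and kirre. The remaining 4 did not pass in every replicate: cv-c and rols, a myoblast fusion protein, were lost without replicate 1 (exact adjusted p = 0.0642 and 0.116), and rols, Antp and CG43658 without replicate 2 (adjusted p = 0.697, 0.150 and 0.338). Smr and cv-c did not pass when only the strongest of summits within 1 kb was kept (exact adjusted p = 0.0797 and 0.0540) or only peaks with a partner in both replicate lists (adjusted p = 0.0814 and 0.0574). At a span of 40 kb rols did not pass (exact adjusted p = 0.0679), and Antp did not with the shortest gene as host (adjusted p = 0.919).

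Only very long genes could pass as sparser, since a shorter gene is given few members by its length: bru3, with 0 members in 281494 bp, did not pass (exact adjusted p = 0.0558). Beside Myo81F (exact adjusted p = 5.22e-16) they were Pzl, a homologue of Piezo channels (adjusted p = 1.38e-05), lovit (adjusted p = 0.00249), CG17684 (adjusted p = 0.00600) and DIP-lambda, an immunoglobulin protein (adjusted p = 0.00579). Together they made up 15.5% of the eligible bases and held 1 member, the Myo81F summit of rank 4706. Their spans run from 379081 bp in DIP-lambda to the 1.97 Mb of Myo81F. They start at 567076 bp (Myo81F) and 2554162 bp (Pzl) on 3R, 326768 bp (DIP-lambda) and 1866080 bp (CG17684) on 2R, and 25236940 bp (lovit) on 3L. All lie toward the centromere side of their arms. Annotated transposable elements covered 6.39 to 13.8% of these 5 genes, beside a median of 3.30% over the 300. With such bases left out, 59 results of this report kept direction and side of the threshold and 1 no longer passed. The part of such sequence or of position in the low counts was not tested. Over all eligible bases 7.77% lay in annotated transposable elements, where 1 member lay (0.181%).

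Single genes differed in where their members lay. The gene with the most, kirre, encodes an adhesion protein of myoblast fusion and spans 394149 bp. Its 22 members fell in 7 introns, from 46.4 to 369 kb from its 5' end, 11 of them in intron 9, and 13 had a kirre TSS as the nearest TSS. The strongest had rank 413 in the IDR list, 510 in replicate 1 and 369 in replicate 2. In hth, which encodes the Hox cofactor Homothorax, 15 members lay in 6 introns between 11.1 and 119 kb from the 5' end, 5 of them in intron 1. The strongest hth member had rank 587, and the ranks in replicates 1 and 2 were 860 and 540. In sbb 9 of the 11 members lay in intron 1, which made up 48363 of the 56055 eligible bases. In ftz-f1 all 9 lay in intron 2, which runs from 3.773 to 35.564 kb of the 50.703 kb gene. In Hr4, an ecdysone-response nuclear receptor, 4 of the 9 lay in intron 1, with 10387 of the 50289 eligible bases. Intron 1 of hth made up 23847 of 118591. Counts by intron were not tested for single genes.

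**Figure D3:**
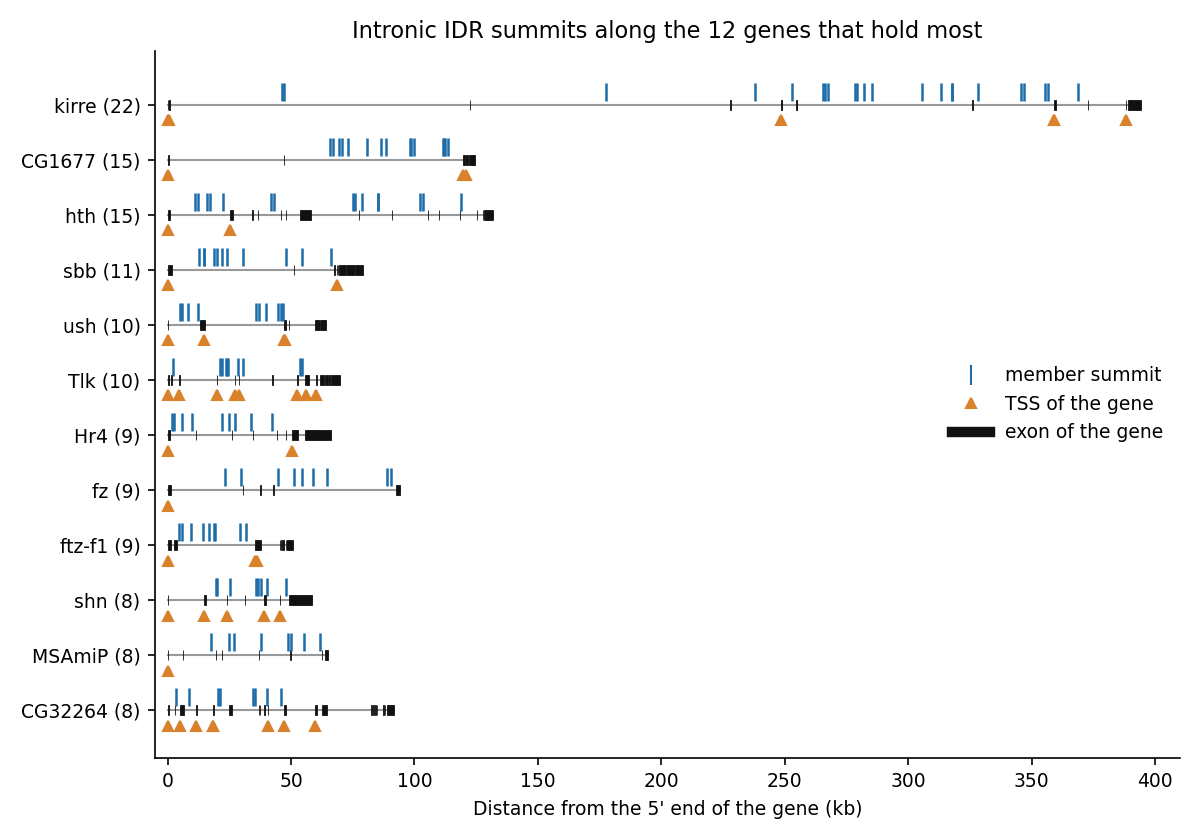
The 12 genes with most members, from the 5' end (x axis, kb), with member summits as blue ticks, the gene's own TSSs as orange triangles and its exons as black boxes; numbers beside the names are members. The CG1677 members all lie in 1 intron, while those of kirre, hth and Tlk lie in several introns.

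The 15 members of CG1677 lay in a single intron, intron 2 of 72465 bp, and none had a CG1677 TSS as its nearest. They lay 65.8 to 114 kb from the 5' end of CG1677 but only 528 to 6371 bp from a TSS of another gene. The layout of the gene gave nearly the same, as 89863 of its 90795 eligible bases had another gene's TSS as the nearest. Nearest TSSs were those of CBP and unc-119 for 4 members each, of brk for 3, of Atg5, an autophagy gene, for 2, and of Dok and CG42780 for 1 each. The strongest (rank 222, 369 and 186 in replicates 1 and 2) lay 731 bp from a TSS of brk, which encodes the repressor of Dpp target genes. MSAmiP, which lies in the bithorax complex between abd-A and Abd-B, had 8 members and likewise none nearest to its own TSS. Of these 4 were nearest to the noncoding iab8, 3 to mir-iab-8 and 1 to abd-A, and the strongest had rank 301 (175 and 409 in replicates 1 and 2). In MSAmiP 50860 of the 52301 eligible bases had another gene's TSS as the nearest. All 10 Tlk, all 9 ftz-f1, all 8 shn and all 8 CG32264 members were nearest to a TSS of their own host. For fz, a Wnt and planar polarity receptor, this held for 1 of 9. Another gene's TSS was the nearest for 1336 of 53080 eligible bases in Tlk, 4477 of 40550 in ftz-f1 and 6485 of 42956 in shn. In CG32264 it was for 18031 of 71812 and in fz for 63497 of 88068. The counts of these single genes were not tested against such shares.

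Over all members the nearest TSS was the host's own for 317 (57.4%), against 41.2% of eligible bases so placed. The nearest TSS belonged to another gene for 235 (42.6%, 38.5 to 46.7%), against 58.8% of eligible bases, a ratio of 0.724 (exact binomial p = 1.65e-14). The ratio was 0.713 in replicate 2 alone and 0.728 in replicate 1 alone. The test took summits as independent, but those of 1 gene can share the answer, so its p-value can be too small. The 10 of Tlk were all nearest to their host's TSS and the 15 of CG1677 all to another gene's. Myo81F, with 1 member, held 1876353 of the eligible bases nearest to another gene's TSS. Of the 235, 125 were nearest to another protein-coding gene, and for 85.5% the other gene lay wholly inside the host. Another gene of any type covered the summit of 69 members (12.5%), against 6.83% of eligible bases. The distance to the TSS was alike, with a median of 5160 bp where it was another gene's and 5369 bp where it was the host's.

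The 10 strongest members lay in 10 genes. The ush member, rank 2 in the IDR list and in both replicates, lay in intron 1, 4868 bp from the 5' end of ush and 1400 bp from a TSS of cbt, a zinc finger factor. The Tlk member had rank 56 (38 and 79 in replicates 1 and 2) and lay in intron 4. The next, rank 107 (110 and 114), lay in intron 3 of mub, which encodes an RNA-binding protein, 910 bp from a mub TSS. Rank 154 (205 and 137) lay in intron 3 of CG33158, 3093 bp from a TSS of aos, the secreted inhibitor of EGFR. After the CG1677 member at rank 222 came members of mam, the Notch coactivator (rank 278), Msp300, a nesprin of muscle nuclei (rank 282), shn (rank 289), prage (rank 300) and MSAmiP (rank 301). Of the 100 strongest IDR peaks 2 were members, of the 500 strongest 20, and of the 1000 strongest 58.

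Of the Hox genes over 50 kb, Antp held 8 members and Ubx 1. The Antp members lay at 8.66 per 100 kb (exact adjusted p = 0.0174), in introns 1, 3, 4 and 8, the strongest at rank 885 (956 and 893 in replicates 1 and 2) in intron 4. The Ubx member, in intron 3, had rank 3606 (2910 and 3848) and lay 17047 bp from the nearest TSS, that of a noncoding antisense transcript, PS4.

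Members lay toward the 5' ends of their genes. Introns were taken as the gaps between the merged exons of a gene and numbered from its 5' end. The first intron held 116 members (21.01%, 17.8 to 24.6%), against 14.5% of eligible bases, a ratio of 1.45 (exact binomial p = 3.62e-05). The density was 3.23 per 100 kb in intron 1, 2.68 in intron 2, 2.33 in intron 3 and 1.78 in later introns. In the 50% of the span next to the 5' end lay 59.6% of members (55.5 to 63.6%), against 52.5% of eligible bases, a ratio of 1.14 (exact p = 0.000872). This ratio was 0.894 in genes of 100 kb or more (exact p = 0.144), where the first intron ratio was 1.38 (exact p = 0.0876), and neither position passed among the 1000 strongest peaks (ratios 1.02 and 1.31, exact p = 0.896 and 0.349). In steps of 20% of the gene span from the 5' end the densities were 3.09, 2.36, 1.88, 2.19 and 1.47 per 100 kb. The median distance to the nearest TSS of any gene was 5758 bp for members of first introns and 4997 bp for those of later introns. The distances of eligible bases in these introns were not compared, and the difference was not tested.

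**Figure D4:**
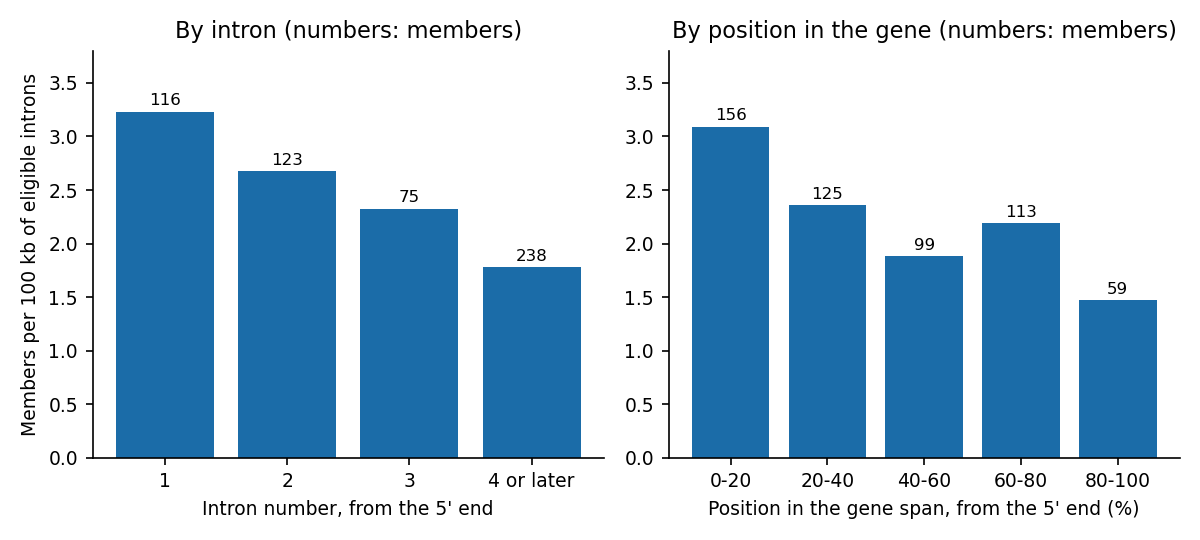
Members per 100 kb of eligible introns (y axes) by intron number from the 5' end (left) and by steps of 20% of the gene span from the 5' end (right), with the number of members above each bar. Both fall from the 5' end, from 3.23 in intron 1 to 1.78 in introns 4 or later, and from 3.09 in the first step to 1.47 in the last, with 2.19 in the fourth above 1.88 in the third.

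Intron length as such showed no single direction. The median member lay in an intron of 21.9 kb (quartiles 12.01 and 42.2 kb), 4124 bp from the nearer exon, and 4 lay within 200 bp of an exon. Introns of 10 kb or more held 79.2% of members, against 80.5% of eligible bases (exact p = 0.4199). Density was 0.381 per 100 kb in introns under 1 kb, 1.74 at 1 to 5 kb, 3.42 at 5 to 10 kb, 2.70 at 10 to 20 kb, 2.61 at 20 to 50 kb and 1.37 at 50 kb or more.

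Among chromosome arms, members were densest on X. The X held 158 members, 140 in replicate 1 alone and 159 in replicate 2 alone, at 3.12 per 100 kb, a ratio of 1.40 to its share of eligible bases (exact binomial adjusted p = 3.15e-05). Intronic summits of shorter genes were also densest on X, at 5.82 per 100 kb. On 2L the ratio was 1.24 (97 members, exact adjusted p = 0.0419), on 2R 0.740 (70, adjusted p = 0.00938), on 3R 0.803 (121, adjusted p = 0.00938) and on 3L 0.924 (106, adjusted p = 0.448), and the 1 long gene on chromosome 4 held none. Without Myo81F the ratio on 3R was 1.03 (exact adjusted p = 0.811) and on 2L 1.14 (adjusted p = 0.235), while X and 2R still passed (adjusted p = 0.00119 each). The other genes called sparser were kept there. On 2R, CG17684 and DIP-lambda made up 389553 and 376291 bp of the 4.25 Mb of eligible bases with 0 members. The arms were not recomputed without them.

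Host genes had promoter summits more often than the other long genes. A summit within 500 bp of one of the gene's own TSSs was present in 59 of 171 hosts (34.5%), against 26 of 129 genes without a member (20.2%, Fisher's exact p = 0.00668), and in 28.3% of all 300. Hosts have more TSSs, a median of 3 against 2. Among genes with 4 or more TSSs the shares were 61.7% of 47 hosts and 29.4% of 17 others, with 2 to 3 TSSs 29.1% of 79 and 20.0% of 50, and with 1 TSS 15.6% of 45 and 17.7% of 62. The difference was 10.04 percentage points with members taken beyond 2000 bp from a TSS (exact p = 0.0559).

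By gene list, the share of long genes with a member ran from 16.7% in the ion channel and neurotransmitter receptor list to 100% in the ecdysone and nuclear receptor list. Set beside the 57% of all long genes that held one, with a median of 1 member per gene and 2.23 per 100 kb, the 6 gene lists differed as follows, with no test of the lists. They were chosen with earlier results of these data known, so their order is not independent of the data. The lists are partial: the long genes pdm3, Glut4EF and lov, of transcription factors, and pHCl-1, Cngl and Pzl, of channels, are on none of them and held 0 members, shn is on none with 8, and cpo, which encodes an RNA-binding protein, is on the transcription factor list with 4. Of the 21 long genes on the transcription factor list 19 held a member (90.5%, median 3, 5.64 per 100 kb): after hth, sbb, ush and Antp came tai, a coactivator of the ecdysone receptor, with 6, and chinmo and lola held none. All 8 long genes of the ecdysone and nuclear receptor list held one (median 5, 8.43 per 100 kb), led by Hr4 and ftz-f1 with 9 each, Eip75B, a nuclear receptor, with 7, and tai. EcR, the ecdysone receptor itself, held 2. Of the 13 long genes on the signalling list 11 held one (84.6%, median 3, 4.40 per 100 kb), with 9 in fz and 5 each in pnt, an ETS factor of the EGFR pathway, Pvf3, a ligand, and fz2, a Wnt receptor, and none in Pde1c or rl, the ERK kinase. The genes tai and pnt are in 2 lists each.

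Of the 18 long genes on the ion channel and neurotransmitter receptor list 3 held a member (16.7%, median 0, 0.289 per 100 kb), namely Elk, Ca-alpha1T and 5-HT2B with 1 each. None lay in cac, a calcium channel, or in 5-HT1A, a serotonin receptor, and each replicate alone found 2 of the 18. In the full pooled list, which goes far below the IDR threshold, these genes held 16.0 summits per 100 kb, against 21.3 over all long genes and 33.1 in the transcription factor list. The axon guidance and cell adhesion genes listed were close to all long genes, with 18 of 32 (56.3%, median 1, 2.17 per 100 kb), and 22 of their 59 members lay in kirre. Ten-a, a teneurin, held 8, Sema1a, a guidance cue, and beat-IIIc 4 each, and Cad87A and CadN2, both cadherins, none. Of the 7 long genes on the cytoskeleton and muscle list 5 held one (71.4%, median 1, 3.84 per 100 kb), with 5 in rols, 2 each in Dys, the dystrophin gene, and shot, a spectraplakin, and 1 in Msp300, and none in bt or sls, both giant muscle proteins.

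**Figure D5:**
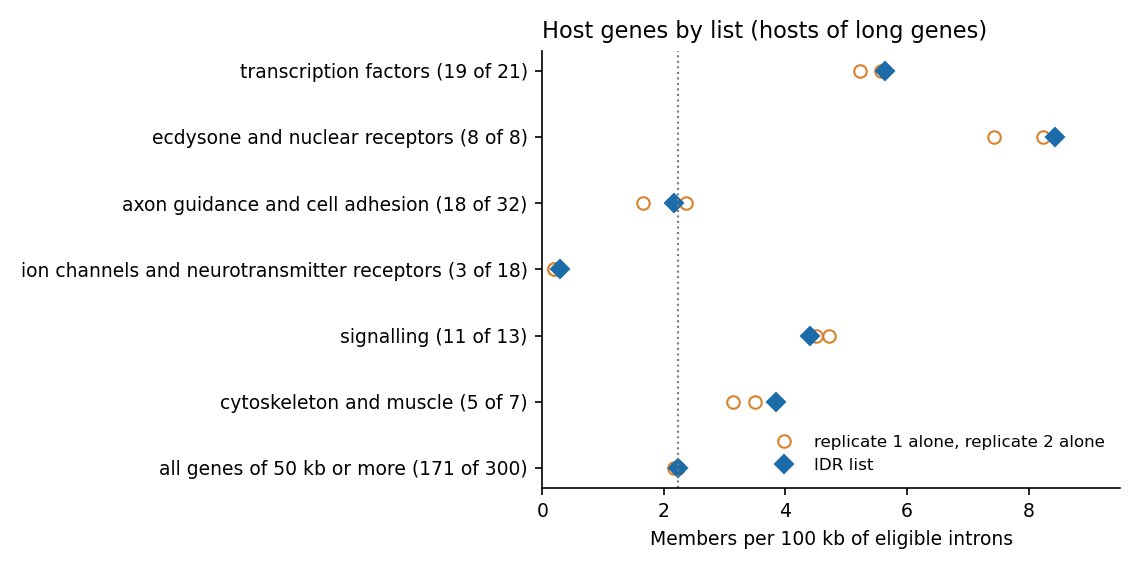
Members per 100 kb of eligible introns (x axis) for the long genes of each list, in the IDR list (filled) and by the same rule in each replicate alone (open), with hosts of long genes in brackets and a dotted line at the 2.23 per 100 kb of all long genes. The ecdysone and nuclear receptor list lies highest, at 8.43 in the IDR list, and the ion channel list lowest, at 0.289.

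Members had AT-rich centres. GC content within 100 bp of the summit averaged 35.3% (SD 7.22 over 552 members), against 41.5% (SD 7.18) in their flanks 400 to 500 bp away and 40.2% in tiles of the eligible bases, and 391 members were lower at the centre than in the flanks. Intronic peaks in shorter genes averaged 34.5% and promoter peaks 34.6%. Below the median GC content of all IDR peaks lay 44.9% of members, against 49.0% of peaks in shorter genes (Fisher's exact p = 0.120) and 49.9% of promoter peaks (exact p = 0.0381), and the difference from promoters was -3.10 percentage points without replicate 1 (exact p = 0.202) and -11.9 without replicate 2.

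For 14 motifs, the share of members with a match within 100 bp of the summit was compared with other peaks and with the flanks. None of the 14 was more frequent (0%) or less frequent (0%) than in the introns of shorter genes. Against promoter peaks 2 were more frequent (14.3%) and 3 less frequent (21.4%), by Fisher's exact tests adjusted over the 14. The DREF motif TATCGATA, a core promoter motif of housekeeping genes, was present at 1 member (0.181%), against 7.98% of promoter peaks (exact adjusted p = 1.32e-15). The M1BP motif GGTCACAC, also of core promoters, was at 2 members (0.362%), against 5.03% of promoter peaks (exact adjusted p = 3.07e-08). The E-box CAGCTG was at 5.25% of members, against 8.72% of promoter peaks (exact adjusted p = 0.0197), a call lost without replicate 1 (adjusted p = 0.161) and without replicate 2 (adjusted p = 0.0988). More frequent than in promoters were the GAGA factor motif GAGAG, at 23.6% of members and 16.7% of promoter peaks (exact adjusted p = 0.00102), and the CA repeat CACACACA, at 3.99% and 2.05% (adjusted p = 0.0356). Tiles of the same length over the eligible bases held GAGAG in 22.1%, CACACACA in 5.43%, the E-box in 6.91%, DREF in 0.434% and M1BP in 0.315%. The rule left out summits within 500 bp of a TSS. Lower shares of core promoter motifs than at promoter peaks were thus favoured in advance. None of these 5 differences from promoters passed among the 1000 strongest peaks (smallest exact adjusted p = 0.305).

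The Abd-B form TTTATTG was the 1 motif more frequent at members than in their flanks (7.14% of the 14), and CACACACA the 1 less frequent (7.14%), by exact McNemar tests adjusted over the 14. TTTATTG was at 77 members (13.9%) of the 552 and in 43 flanks (7.79%), at a ratio of 1.79 (exact adjusted p = 0.0184), and in 9.60% of tiles. CACACACA was at 22 members (3.99%) and in 47 flanks (8.51%), at a ratio of 0.468 (exact adjusted p = 0.0184). The other Abd-B form, TTTATGG, was at 9.24% of members and in 7.43% of flanks (ratio 1.24, exact adjusted p = 0.652), and the Hox core TAATTA at 18.3% and 12.5% (ratio 1.46, adjusted p = 0.0545). Without replicate 1 the TTTATTG ratio was 1.44 (exact adjusted p = 0.121) and without replicate 2 1.88 (adjusted p = 0.00354), and TTTATGG passed without replicate 2, at 2.12 (adjusted p = 0.00185). CACACACA passed neither without replicate 1 nor without replicate 2 (exact adjusted p = 0.0569 and 0.105). Neither TTTATTG nor CACACACA passed when only the strongest of summits within 1 kb was kept (exact adjusted p = 0.0937 each), and among the 2500 strongest peaks the TTTATTG ratio was 1.33 (adjusted p = 0.698). Either Abd-B form was at 120 members (21.7%), 19.6% of peaks in shorter genes, 17.6% of promoter peaks and 14.99% of tiles. Summits were AT-rich and so are these motifs, and the part of base composition in the ratios was not tested.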

How the data were processed

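ChIP-seq peak lists of 1 group of 2 biological replicates were analysed, on build dm6 as the labels give it, namely a list for each replicate, a pooled list and the authors' optimal IDR list of 5033 peaks. The scale of the deposited signal value is unknown, and with the deposited −log10 q-value it served only to rank peaks. The lists hold no read counts, so depth is unknown; no aligner or caller is given in the sources used here. Per the labels, sonicated fragments were 200 to 800 bp long.

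Summits were placed on the Ensembl release 115 annotation (BDGP6.54), whose transposable element records were left out of genes, TSSs and exons, and on the RefSeq sequence, for the arms 2L, 2R, 3L, 3R, 4 and X. Where several protein-coding genes covered a summit, the longest was the host; of 307 genes of 50 kb or more, 7 lay wholly inside longer ones. Shares of summits were set against shares of eligible bases by exact binomial tests, classes of peaks against each other by Fisher's exact tests, and centres against flanks by exact McNemar tests, all two-sided, with Benjamini-Hochberg adjustment at 0.05. These tests took summits as independent, which summits of the same gene need not be. "Without replicate 1" means the 5033 strongest peaks of replicate 2 alone, and the reverse. Members, lists and tests were chosen with earlier results of these data known. The tests by distance from a TSS, of the nearest TSS and of transposable elements, the splits by TSS number and the densities of the pooled list were added after seeing the files.

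Named genes were the hosts of the 10 strongest members, the 12 genes with most members, the 5 densest and 5 sparser genes that passed, Ubx and Antp, and up to 4 hosts and 2 genes without a member per list; the others that passed, and EcR, Elk, bru3, the genes missing from lists and cpo, and genes named by their TSS, were named after their values were seen. On simulated, independent summits over the 300 genes, 72.7% of genes made 8-fold denser were recovered by the gene test. Those genes were drawn only from genes at or above the median of eligible bases, so recovery in shorter genes is unknown. Tests used scipy 1.17.1 and figures matplotlib 3.10.9, under Python 3.11.15 with pandas 2.3.3 and numpy 2.4.6. Alternatives were stricter peak sets, each replicate alone, other spans, TSS distances, hosts, introns, partner distances and motif windows.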

Additional observations from a re-analysis of the deposited data

How the results depend on the processing

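The lower share of members among intronic summits, the lower share with another gene's TSS nearest and the lower share of members than of promoter peaks in the strongest 25% kept their direction and passed in each alternative run. In the 1000 strongest IDR peaks the ratios were 1.31 for the first intron and 1.02 for the 5' side, 4 genes were denser and 0 sparser, 2 arms passed, the GC difference from promoters was -11.3 points, 1 motif was less frequent than in shorter genes, 0 were more and 0 less frequent than in promoters and 0 more frequent than in flanks, M1BP stood 0.466 points above promoters, TTTATGG and TAATTA had flank ratios of 0.5 and 0.8, and cv-c, ftz-f1, rols and CG43658 held 0 members, CG43658 also in the 2500 strongest. In the 2500 strongest the 5' side ratio was 1.11, 12 genes were denser and 1 sparser, 1 arm passed, the GC difference was -4.07, partners in both replicates were 3.26 points more frequent than at promoters, 0 motifs were more and 1 less frequent than in promoters, 0 more and 2 less frequent than in flanks, and the TTTATGG ratio was 0.810. At a span of 100 kb the 5' side ratio was 0.894, the first intron ratio 1.38 and the long intron ratio 0.932, 11 genes were denser, 2 arms passed, the GC difference was -3.35, the strongest 25% difference from shorter genes -2.89, and 0 motifs were more frequent than in promoters, 0 more and 0 less than in flanks. At 40 kb 2 arms passed, the GC difference from shorter genes was -7.87 and 2 motifs were more frequent than in flanks.

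With TSS distances of 1000 and 2000 bp the long intron ratios were 1.00 and 1.03, the strongest 25% differences from shorter genes -3.08 and -0.69, and the GC differences from promoters -4.21 and -4.90; at 2000 bp the promoter-summit difference was 10.04 and the partner difference from shorter genes -0.14. The long intron ratio was 1.04 with introns of 5 kb (exact p = 0.00488) and 0.909 with introns of 20 kb (exact p = 0.00884). The partner difference from promoters was -0.71 within 50 bp, 2.54 within 250 bp and -10.7 among the 5033 strongest peaks of each replicate. Leaving out a replicate gave long intron ratios of 0.971 to 1.00, GC differences from promoters of -11.9 to -3.10, 2 to 4 motifs more frequent than in promoters, 0 to 2 more and 0 less frequent than in flanks, TTTATGG ratios of 0.953 to 2.12 and TAATTA ratios of 1.00 to 1.36. Motifs more frequent than in promoters numbered 0 within 50 bp, 4 within 200 bp and 1 among peaks with a partner in both replicates; within 50 bp, 0 were more and 0 less frequent than in flanks. Among alternatives added after seeing the data, keeping the strongest of summits within 1 kb left 0 motifs more and 0 less frequent than in flanks, leaving out Myo81F gave a long intron ratio of 1.00, an arm 3R ratio of 1.03 and 2 arms, and leaving out genes of over 20% transposable element bases a GC difference of -4.39. The cause was not tested for any of these. Single genes and motifs were recomputed only where the text gives their test. Over these and the other results, 703 values kept direction and side of the threshold, 99 kept direction but no longer passed, 7 newly passed, 21 changed direction and 34 counts moved by over 1.5 times. Read depth is unknown and limits which weak sites could be listed. No pairing of samples was possible because there was 1 group, while centres and flanks were paired within each member.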
